A study of Mus musculus with 32 samples.

Results

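The DNA replication machinery was examined here as 45 genes of the 13175 measured in single mouse oocytes. The genes were chosen by symbol alone: Mcm2 to Mcm10, Rfc1 to Rfc5, Orc1 to Orc6, Gins1 to Gins4, Rpa1 to Rpa3, Prim1, Prim2, Pcna, Cdc6, Cdt1, Cdc45, Gmnn, Fen1, Lig1 and the subunits of DNA polymerases alpha, delta and epsilon whose symbol is Pola, Pold or Pole and a digit. The 36 symbols named singly were all present, and 9 polymerase subunits matched the pattern. The oocytes came from wild-type mice (strain and age not given in the sources used here), grown inside preantral follicles in culture. The follicles of one arm had been vitrified, that is, frozen into a glass-like state, before culture, and the follicles of the other arm were fresh. Fully grown oocytes at the germinal vesicle (GV) stage, arrested in meiotic prophase, were collected on day 8, with 4 from fresh and 4 from vitrified follicles. Oocytes at metaphase II (MII), the stage at which an egg is ovulated and awaits the sperm, were collected on day 9 after the follicles had received the ovulatory hormone hCG, with 12 from fresh and 12 from vitrified follicles. Each library held 1 oocyte and the labels number the oocytes as biological replicates. They do not say which oocytes shared a mouse or a culture, so the p-values measure only the spread between these oocytes.

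DNA replication starts at origins, where the origin recognition complex (ORC), Cdc6 and Cdt1 load the ring-shaped MCM2-7 helicase, and geminin (Gmnn) holds Cdt1 back to prevent a repeated loading. Cdc45 and the GINS complex then join MCM2-7 to make the active helicase, polymerase alpha with its primase begins each strand, the RFC complex loads the sliding clamp PCNA, polymerases delta and epsilon extend, RPA coats single strands, and Fen1 and ligase 1 join the lagging-strand fragments. An oocyte completing meiosis replicates no DNA between its divisions, and the fertilised egg replicates its genome with proteins made largely from stored maternal messengers. Fully grown oocytes make little new RNA, and their stored messengers are kept with short poly(A) tails, lengthened or destroyed during maturation. The cytoplasmic polyadenylation element (CPE), a U-rich motif near the 3′ end bound by CPEB proteins, is the best known signal for such lengthening.

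The 3′ ends are shown first because the genes that rose and those that fell in MII oocytes differed in them. The CPE was searched as TTTTAT or TTTTAAT, and the polyadenylation signal as AATAAA or ATTAAA, on the sense strand within the last 100 bases of 1 annotated transcript per gene (GENCODE M21, build GRCm38). Each window below has 30 bases, is written 5′ to 3′ in DNA letters, and has both kinds of motif in capitals. The motifs can overlap. The first 6 genes rose and held a CPE, as did 12 of the 19 genes that rose in fresh follicles. The 7 genes that rose without a CPE are not shown. Rfc3 is one of the 2 genes that fell and held a CPE, and the last 4 fell and held none.
Mcm2, chr6:88883483-88883512 (minus strand): tattTTTTAATagatttgAATAAAacctaa
Mcm7, chr5:138164606-138164635 (minus strand): acttTTTTATtctgccAATAAAgtgttttg
Orc1, chr4:108614804-108614833 (plus strand): gatacaaagtaaaattgaTTTTATagaaaa
Pole3, chr4:62522667-62522696 (minus strand): aagaTTTTAATgctttctacaAATAAAgaa
Gins3, chr8:95645018-95645047 (plus strand): TTTTATcattcgactttcatcctaAATAAA
Cdc45, chr16:18780447-18780476 (minus strand): TTTTAATAAAatgtttgatgTTTTATcccc
Rfc3, chr5:151642756-151642785 (minus strand): tctctgaggtataaatctttatTTTTATgt
Mcm5, chr8:75128401-75128430 (plus strand): tctgccttctgagtactgggATTAAAagtg
Gins1, chr2:150931226-150931255 (plus strand): attgtactcttataattgaaAATAAAcagt
Prim1, chr10:128029947-128029976 (plus strand): ggtgtcaagagccctgaaacAATAAAtcaa
Fen1, chr19:10199147-10199176 (minus strand): tgtgaagagaaaaaaaaaacAATAAAatta

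Between 5300203 and 12206497 reads were assigned to genes in the 24 MII oocytes, and between 10357543 and 17687247 in the 8 GV oocytes. GV oocytes had library numbers of 81 to 85 and MII oocytes of 2 to 25, so stage cannot be told apart from library series. All GV values were whole numbers, whereas 11.4% to 19.4% of the values of an MII oocyte were not, and no source used here names the step that made them so. Among the 45 genes, 17 had whole values in all 24 MII oocytes and 28 did not. All 13 oocyte markers examined were above 0 in every oocyte. The summed level of 18 cumulus and granulosa markers was 68.1 to 92.0 CPM (counts scaled to a common library size) in GV oocytes, where Areg, Ereg, Btc and Ptx3 were at 0. It was 64.6 to 506 CPM in MII oocytes apart from fresh replicate 11, at 3244 CPM. CPM values are shares of a library, so a gene can rise in CPM without any gain in molecules. Poly(A) tail lengths were not measured, and whether a change in CPM reflects RNA amount or tail length was not tested.

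The replication genes split between stages rather than moving together. In oocytes of fresh follicles 19 of the 45 were higher in MII than in GV (42.2%), beside 22.8% of all 11470 genes tested, and 15 were lower (33.3%), beside 29.8% of all genes (edgeR's quasi-likelihood test with Benjamini-Hochberg adjustment over all genes, adjusted p below 0.05). Vitrified follicles gave 18 higher (40.0%, beside 23.3% of all genes) and 17 lower (37.8%, beside 33.7% of all genes). The median log2 fold change of the 45 genes was 0.34 in fresh and 0.24 in vitrified follicles, where the medians of all genes tested were −0.23 and −0.34. Single genes ranged from −4.85 (Rfc2) to 3.47 (Mcm4) in fresh follicles. Of the 45 genes, 18 were called higher in both kinds of follicle (40.0%, beside 19.8% of all genes) and 15 lower in both (33.3%, beside 27.3%), and 9 were called in neither. In fresh follicles 14 genes were higher in every MII oocyte than in any GV oocyte, and 9 lower, where 12.5% and 18.5% of all genes were. In vitrified follicles there were 15 and 14 such genes, beside 13.2% and 20.7% of all genes. The fresh and vitrified comparisons used separate oocytes.

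The stage split moved with how the MII values had been made. Among the 17 genes with whole MII values, 5 were higher (29.4%) and 9 lower (52.9%) in fresh follicles, with a median log2 fold change of −1.51. Of all genes with whole MII values 10.5% were higher and 2384 of 6616 lower, with a median of −0.84. The other 28 replication genes gave 14 higher and 6 lower, with a median of 0.61, and all other genes gave 39.5% higher and 21.2% lower, with a median of 0.49. When the libraries were scaled over genes with whole MII values only, the median of all genes shifted by 0.79 on the log2 scale in fresh and by 0.84 in vitrified follicles. Of the genes called in fresh follicles, 71.4% were then higher (25 of 35), against 55.9% with the scaling over all genes. The same change in vitrified follicles was from 51.4% to 66.7% (24 higher, 12 lower). The share over all called genes moved alike, from 43.4% to 64.3% in fresh and from 41.0% to 61.3% in vitrified follicles. All 19 genes called higher in fresh follicles stayed higher under that scaling, and 10 of the 15 called lower stayed lower. The part of the unknown step in these directions was not tested.

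**Figure D1:**
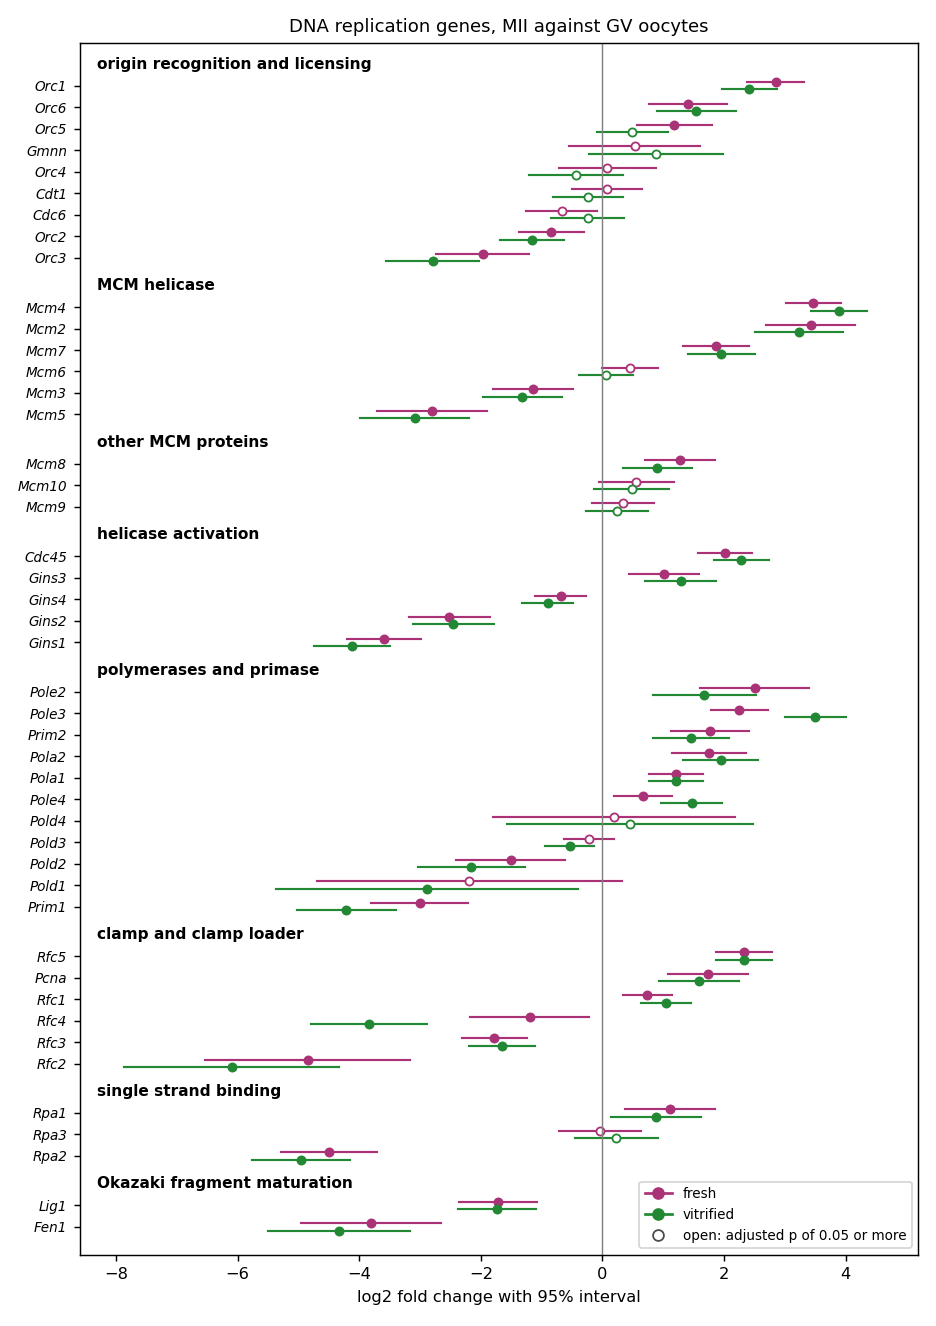
Log2 fold change from GV to MII oocytes (horizontal axis) for the 45 replication genes, grouped by role, in fresh and in vitrified follicles, with 95% intervals; values right of 0 are higher in MII. Most roles hold genes on both sides of 0, from Rfc2 at −4.85 to Mcm4 at 3.47 in fresh follicles.

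The subunits of the MCM2-7 ring, which act in equal numbers, moved apart. Mcm4 (chromosome 16, minus strand) measured 46.1, 54.3, 43.1 and 43.6 CPM in the 4 fresh GV oocytes and 316 to 707 CPM (median 526) in the 12 fresh MII oocytes. The ranges lie far apart, and the log2 fold change was 3.47 ± 0.22 (SE, adjusted p = 4.8e-15). Mcm2 measured 31.7, 17.1, 19.7 and 37.6 CPM in fresh GV oocytes and 133 to 451 CPM (median 269) in fresh MII oocytes, a log2 fold change of 3.43 ± 0.36 (SE). Mcm7, whose MII values were all whole, went from 44.6, 79.6, 21.9 and 71.9 CPM to 134 to 247 CPM (median 216). Its log2 fold change was 1.87 ± 0.27 (SE, adjusted p = 4.0e-07). Mcm2, Mcm4 and Mcm7 were thus higher in every MII oocyte than in any GV oocyte of the same kind of follicle.

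Mcm5 moved the other way. It measured 119, 182, 94.1 and 184 CPM in fresh GV oocytes and 5.23 to 38.3 CPM (median 19.2) in fresh MII oocytes, and its MII values were all whole. The lowest GV oocyte was above the highest MII oocyte, and the log2 fold change was −2.80 ± 0.44 (SE, adjusted p = 2.0e-06). Mcm3 measured 45.9, 73.6, 23.4 and 91.6 CPM in fresh GV oocytes and 9.68 to 36.9 CPM (median 29.8) in fresh MII oocytes, with 1 GV oocyte inside the MII range. Its log2 fold change of −1.14 ± 0.33 (SE, adjusted p = 0.0036) was not called without GV fresh replicate 4 (adjusted p = 0.054), with a replicate block (adjusted p = 0.060) or under the scaling over whole-valued genes (adjusted p = 0.47).

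Mcm6 was the one ring subunit called in neither kind of follicle with the scaling over all genes. Its log2 fold change was 0.46 ± 0.23 (SE, adjusted p = 0.088) in fresh and 0.06 ± 0.22 (SE, adjusted p = 0.84) in vitrified follicles. Under the scaling over whole-valued genes it was called higher in both, at 1.28 (adjusted p = 5.5e-05) and 0.90 (adjusted p = 0.0021). The fresh comparison also became a call with MII libraries numbered under 20 (0.58, adjusted p = 0.032) and without MII fresh replicate 11, the oocyte with the high cumulus signal (log2 fold change 0.54, adjusted p = 0.019). In vitrified follicles the ring subunits had the same calls, at 3.89 for Mcm4, 3.24 for Mcm2, 1.95 for Mcm7, −1.32 for Mcm3 and −3.09 for Mcm5. Of the 3 MCM proteins outside the ring, Mcm8, which acts in meiotic recombination and repair, rose by 1.28 ± 0.28 (SE) in fresh follicles. Mcm9 and Mcm10 were not called with the scaling over all genes. Both were called higher under the scaling over whole-valued genes (1.16 and 1.38 in fresh follicles), and other settings are not given here for them.

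Compared per length of transcript, the ring subunits lay within 5.44-fold of each other in fresh GV oocytes, from Mcm2 at 7.87 to Mcm5 at 42.8 CPM per kb. In fresh MII oocytes they spread over 23.6-fold, and the order at the ends had turned, with Mcm5 lowest at 6.13 and Mcm4 highest at 145 CPM per kb. Vitrified follicles gave 4.94-fold in GV and 30.3-fold in MII oocytes, with the same subunits at the ends. The 5 RFC subunits went from 8.59-fold to 96.5-fold in fresh follicles, with Rfc5 the lowest in GV (9.53 CPM per kb) and the highest in MII oocytes (48.0 CPM per kb). Without MII fresh replicate 11, the oocyte with the high cumulus signal, the RFC ratio in fresh MII oocytes was 244-fold, with Rfc2 at 0.199 CPM per kb (an alternative chosen after seeing the data). ORC went from 21.3-fold to 133-fold and polymerase alpha with primase from 4.42-fold to 24.6-fold in fresh follicles. GINS was the exception among the 6 complexes compared, with 20.8-fold in GV and 15.6-fold in MII oocytes. These ratios are descriptions of group means and the transcript that an oocyte uses may differ from the annotated one. The median size of the log2 fold change, sign ignored, was 1.509 for the 45 genes and 1.398 for all genes in fresh follicles. In vitrified follicles it was 1.591 and 1.540. Ratios were not computed for other gene sets of these sizes, so whether these complexes spread more than such sets was not tested.

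**Figure D2:**
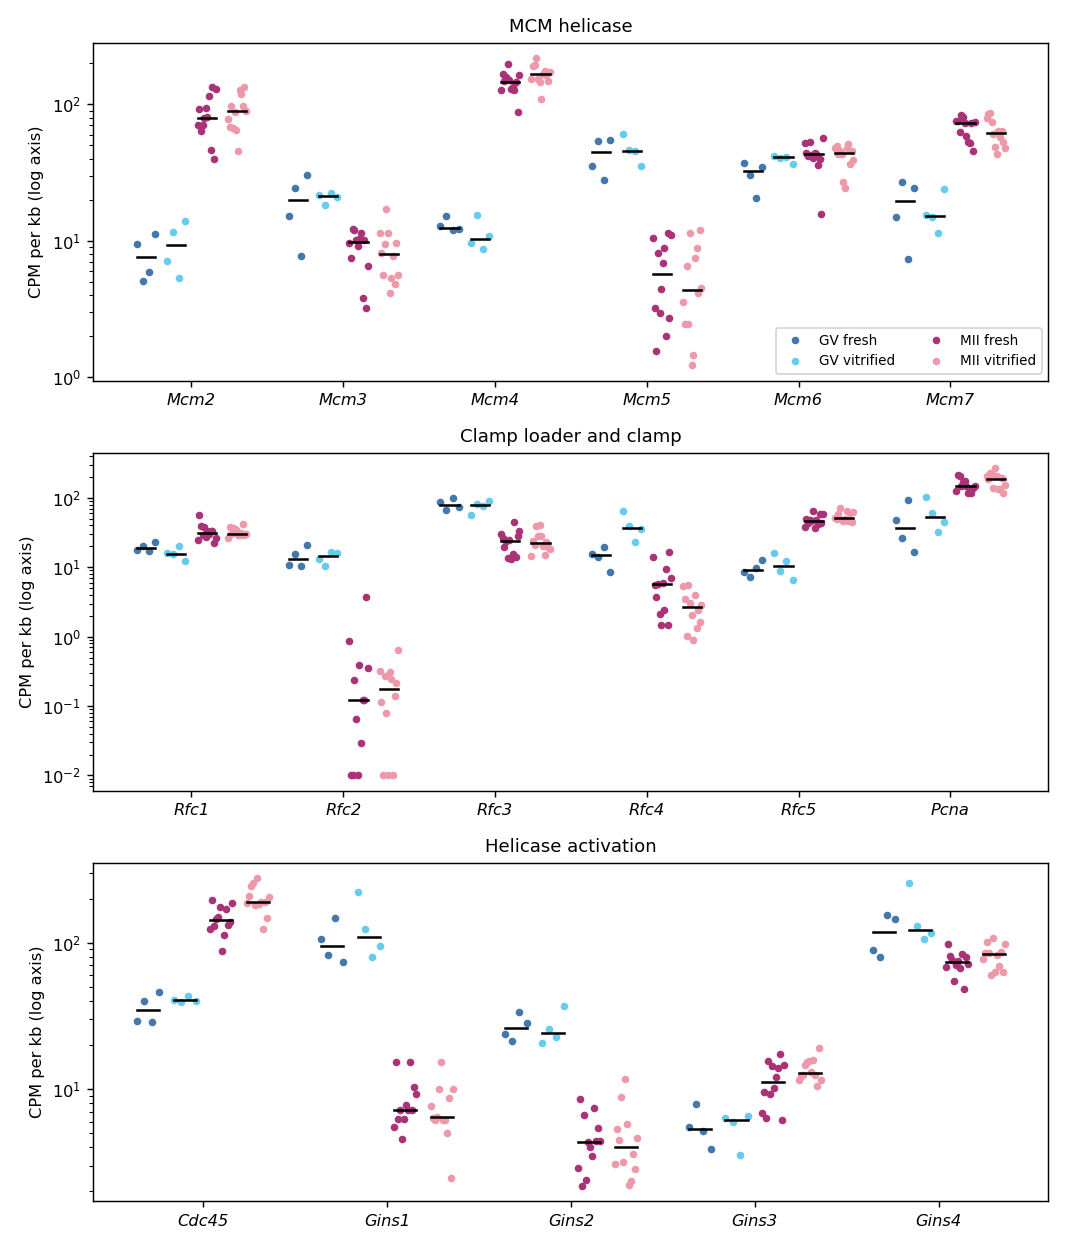
CPM per kb of transcript (log axis) in single oocytes for the MCM ring, the clamp with its loader, and the helicase activators, with 1 point per oocyte, the median as a bar, and values of 0 drawn at 0.01. Mcm2, Mcm4, Mcm7 and Rfc5 rise from GV to MII while Mcm5, Rfc2 and Gins1 fall in both kinds of follicle.

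Among the origin genes, Orc1, the subunit that in mammals comes and goes with the cell cycle, rose most. It measured 26.6, 44.9, 31.9 and 40.6 CPM in fresh GV oocytes and 195 to 386 CPM (median 256) in fresh MII oocytes, all whole values. No MII oocyte came near the GV range, and the log2 fold change was 2.85 ± 0.23 (SE, adjusted p = 1.7e-12) in fresh and 2.42 ± 0.22 (SE, adjusted p = 3.1e-11) in vitrified follicles. Orc6 measured 282, 272, 542 and 215 CPM in fresh GV oocytes and 531 to 1394 CPM (median 839) in fresh MII oocytes, where 1 GV oocyte overlapped. Orc6 rose by 1.41 ± 0.32 (SE) on the log2 scale. Orc3 measured 48.0, 43.8, 56.9 and 33.995 CPM in fresh GV oocytes and 4.91 to 34.6 CPM (median 9.90) in fresh MII oocytes, and fell by 1.97 ± 0.38 (SE) on the log2 scale. Orc2 fell in both kinds of follicle, by 0.84 and 1.16, but not under the scaling over whole-valued genes (−0.026, adjusted p = 0.95, and −0.31, adjusted p = 0.36). Orc5 rose in fresh follicles only by the test of each alone (1.18 against 0.49 on the log2 scale; 1.98 and 1.31, both called, under the scaling over whole-valued genes), and Orc4 was not called in either. The difference between fresh and vitrified follicles for Orc5 was part of the interaction tested below, where no gene was called.

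The 3 genes that load or restrain the helicase were not called in either kind of follicle with the scaling over all genes. Cdc6 measured 52.1, 41.9, 30.1 and 42.3 CPM in fresh GV oocytes and 9.98 to 41.2 CPM (median 27.4) in fresh MII oocytes. Its log2 fold change was −0.67 ± 0.29 (SE, adjusted p = 0.051). Of the 11 settings other than leaving out 1 oocyte, 4 called the fall, DESeq2 among them (−0.83, adjusted p = 0.0085). The change turned to 0.14 under the scaling over whole-valued genes. Leaving out any of 14 single oocytes also made it a call, with adjusted p of 0.035 to 0.049 (GV fresh 3, MII fresh 4, 6 and 7, MII vitrified 1 to 8, 10 and 12). Cdt1 ranged over 61.2 to 181 CPM in fresh GV and 51.9 to 232 CPM in fresh MII oocytes, and Gmnn over 96.7 to 329 CPM in fresh GV and 64.4 to 534 CPM in fresh MII oocytes. Their log2 fold changes were 0.07 ± 0.29 (SE) and 0.53 ± 0.53 (SE). The direction of Cdt1 changed with the setting, to −0.13 without GV fresh replicate 3. Under the scaling over whole-valued genes Cdt1 was called higher in fresh follicles (0.90, adjusted p = 0.013), and Gmnn in fresh (1.33, adjusted p = 0.047) and vitrified follicles (1.72, adjusted p = 0.012). Gmnn was also called in vitrified follicles with a replicate block (1.34, adjusted p = 0.037).

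The helicase activators split as the ring did. Cdc45 measured 62.8, 85.4, 61.1 and 98.9 CPM in fresh GV oocytes and 187 to 417 CPM (median 305) in fresh MII oocytes, without overlap, and rose by 2.01 ± 0.22 (SE, adjusted p = 1.1e-09) on the log2 scale. None of its MII values was whole, and its exons overlap those of Ufd1 on the opposite strand. Gins1, with whole MII values, measured 116, 90.2, 159 and 80.3 CPM in fresh GV oocytes and 4.94 to 16.6 CPM (median 7.81) in fresh MII oocytes. Every MII oocyte was below every GV oocyte, and the log2 fold change was −3.59 ± 0.30 (SE, adjusted p = 4.1e-12). Gins2 fell by 2.52 ± 0.33 (SE) and Gins4 by 0.69 ± 0.21 (SE), whereas Gins3 rose by 1.01 ± 0.28 (SE) on the log2 scale. All 5 had the same call in vitrified follicles. Under the scaling over whole-valued genes Gins4 was called in neither and stood at 0.11 in fresh follicles.

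Polymerase alpha and its primase gave 3 subunits higher and 1 lower in both kinds of follicle. Pola1, the catalytic subunit, rose by 1.21 ± 0.22 (SE), Pola2 by 1.76 ± 0.30 (SE) and Prim2, the large primase subunit, by 1.77 ± 0.32 (SE) on the log2 scale in fresh follicles. Prim1, the catalytic primase subunit, measured 33.8, 28.2, 66.9 and 36.9 CPM in fresh GV oocytes and 1.93 to 12.5 CPM (median 4.72) in fresh MII oocytes, all whole values. The groups did not overlap, and Prim1 fell by 3.01 ± 0.39 (SE, adjusted p = 6.1e-08) in fresh and by 4.22 ± 0.40 (SE, adjusted p = 5.1e-11) in vitrified follicles on the log2 scale.

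The polymerase epsilon subunits rose, and no polymerase delta subunit was called higher under the scaling over all genes. Pole3, a histone-fold subunit of polymerase epsilon that is also part of a chromatin remodeller, measured 86.4, 60.1, 135 and 118 CPM in fresh GV oocytes and 285 to 612 CPM (median 488) in fresh MII oocytes, a rise of 2.25 ± 0.23 (SE) on the log2 scale. The rise was 3.50 ± 0.25 (SE) in vitrified follicles. Pole2 measured 9.03, 13.9, 13.1 and 7.22 CPM in fresh GV oocytes and 43.2 to 85.3 CPM (median 56.4) in fresh MII oocytes, a rise of 2.51 ± 0.44 (SE). Pole4, the partner of Pole3, rose by 0.67 ± 0.23 (SE, adjusted p = 0.016) in fresh and by 1.47 ± 0.25 (SE) in vitrified follicles. No MII value of Pole3 or Pole4 was whole. Of the polymerase delta subunits, Pold2 fell by 1.51 ± 0.44 (SE) in fresh follicles and Pold3 by 0.54 ± 0.20 (SE) in vitrified follicles. Neither call held under the scaling over whole-valued genes, where Pold2 was at −0.72 (adjusted p = 0.18) in fresh follicles and Pold3 turned to 0.31 (adjusted p = 0.20) in vitrified follicles. Pold3 was then called higher in fresh follicles (0.59, adjusted p = 0.018). Pold1, the catalytic subunit, was low throughout, at 2.84, 4.12, 0.8293 and 9.05 CPM in fresh GV oocytes and 0 to 3.97 CPM (median 0.428) in fresh MII oocytes. Its change in vitrified follicles (−2.89 ± 1.23 SE, adjusted p = 0.043) was not called without GV vitrified replicate 4 (−1.85, adjusted p = 0.28) nor without any one of 16 other oocytes, with adjusted p of 0.051 to 0.061 (GV fresh 3, GV vitrified 2 and 3, MII fresh 4, 7 and 8, MII vitrified 1 to 7 and 10 to 12). Without MII vitrified replicate 8 or 9 it was −3.59 or −3.56. Of the 10 settings other than leaving out 1 oocyte, 5 did not call the Pold1 change in vitrified follicles. Among them was the scaling over whole-valued genes (−2.04, adjusted p = 0.16). The catalytic subunit gene of polymerase epsilon does not match the naming rule and was not analysed here.

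The clamp rose while its loader came apart. Pcna measured 71.6, 39.6, 142 and 25.2 CPM in fresh GV oocytes and 178 to 326 CPM (median 222) in fresh MII oocytes, a rise of 1.74 ± 0.32 (SE, adjusted p = 2.7e-05) on the log2 scale, and of 2.36 without GV fresh replicate 3. Rfc5 measured 23.8, 20.1, 26.8 and 35.9 CPM in fresh GV oocytes and 104 to 180 CPM (median 131) in fresh MII oocytes, a rise of 2.33 ± 0.23 (SE), and its exons overlap those of Wsb2 on the opposite strand. Rfc2 measured 53.2, 77.1, 51.8 and 104 CPM in fresh GV oocytes and 0 to 18.9 CPM (median 0.607) in fresh MII oocytes. It was at 0 in 3 of the 12 MII oocytes of each kind of follicle, and its highest fresh MII value came from replicate 11, the oocyte with the high cumulus signal. Rfc2 fell by 4.85 ± 0.83 (SE, adjusted p = 6.8e-06) in fresh and by 6.10 ± 0.87 (SE, adjusted p = 2.7e-07) in vitrified follicles, on the log2 scale. Without MII fresh replicate 11 the fresh change was −6.12. Rfc3 also fell, by 1.78 ± 0.27 (SE), and Rfc1, the large subunit, rose by 0.74 ± 0.20 (SE). For Rfc4 the change in fresh follicles (−1.19 ± 0.48 SE, adjusted p = 0.037) did not pass the threshold once a single oocyte was removed from the fit, for 8 oocytes (fresh GV numbers 1 to 3, fresh MII numbers 4, 5, 7, 8 and 10), with adjusted p of 0.053 to 0.14. Nor was it called with a replicate block (adjusted p = 0.092), in a fit of fresh oocytes only (adjusted p = 0.069), with MII libraries numbered 20 and over (−0.84, adjusted p = 0.23) or under the scaling over whole-valued genes (−0.44, adjusted p = 0.47). In vitrified follicles Rfc4 fell by 3.84 ± 0.47 (SE, adjusted p = 1.3e-08).

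RPA, the single-strand binding trimer, held 1 gene in each direction and 1 without a call. Rpa2 was even in fresh GV oocytes, at 134, 130, 144 and 131 CPM, and lay at 0.878 to 17.5 CPM (median 5.31) in fresh MII oocytes, all whole values. No oocyte of either stage entered the range of the other, and Rpa2 fell by 4.49 ± 0.39 (SE, adjusted p = 8.5e-12) on the log2 scale. Rpa1 rose by 1.11 ± 0.37 (SE, adjusted p = 0.011), and the log2 fold change of Rpa3 was −0.04 ± 0.33 (SE). Both genes that finish the lagging strand fell. Fen1, the flap nuclease, measured 41.4, 52.9, 39.3 and 63.5 CPM in fresh GV oocytes and 1.02 to 8.48 CPM (median 3.45) in fresh MII oocytes, a fall of 3.81 ± 0.57 (SE, adjusted p = 6.8e-07) on the log2 scale. Lig1, the ligase, fell by 1.72 ± 0.32 (SE, adjusted p = 2.1e-05).

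The CPE was more frequent among the genes that rose. Of the 19 genes higher in fresh MII oocytes, 12 held a CPE in the last 100 bases (63.2%), where 798 of 2596 such genes of the whole table did (30.7%). Of the 15 lower genes 2 held one (13.3%), Rfc2 and Rfc3, where 374 of 3360 genes did (11.1%). Of the genes not called, 5 of 11 held one (45.45%), beside 1080 of 5396 over the whole table (20.01%). Over all classes 19 of the 45 genes did (42.22%), beside 2252 of 11352 (19.84%). The excess over the whole table was thus not confined to the replication genes that rose. The median log2 fold change in fresh follicles was 1.11 for the 19 replication genes with a CPE and −0.76 for the 26 without, and the medians over all genes were 0.50 and −0.43. Within the 17 genes with whole MII values, all 5 that rose held a CPE and 8 of the 9 that fell did not. Within the other 28 genes, 7 of the 14 that rose and 1 of the 6 that fell held one. The shares over all genes with and without whole MII values are not given here for the CPE. In vitrified follicles 12 of 18 higher genes (66.7%, beside 850 of 2659 such genes of the whole table) and 2 of 17 lower genes (11.8%, beside 11.1%) held one. Under the scaling over whole-valued genes the fresh counts were 15 of 25 higher genes, beside 28.6% over the whole table, and 2 of 10 lower genes, beside 9.8%. These counts are a description without a test, and a motif match does not show that the site is used. The genes that rose and fell also differed in the GC content of the transcript, with a median of 46.8% against 50.9% among the replication genes, and 46.8% against 51.8% among all genes.

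**Figure D3:**
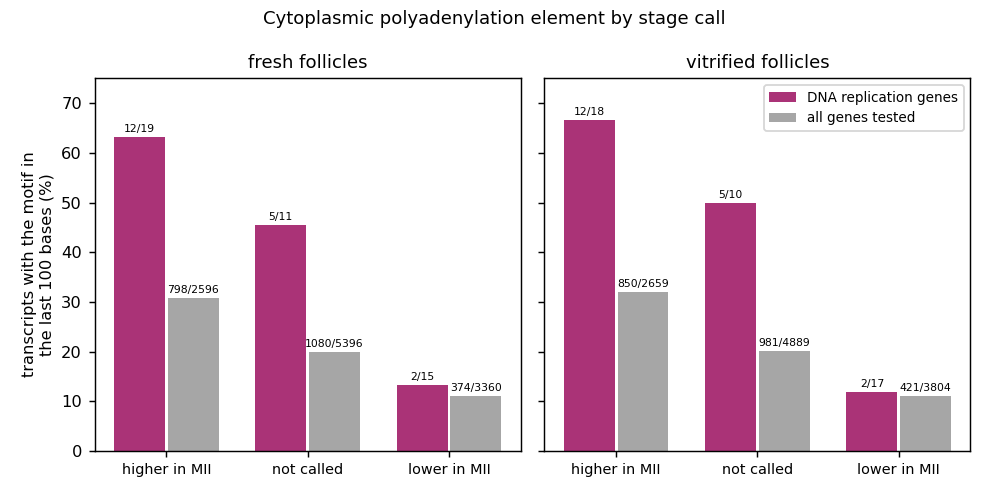
Share of transcripts (percent) with a CPE in the last 100 bases, by stage call, for the replication genes and for all genes tested, in fresh and vitrified follicles; the numbers over the bars are genes with the motif over genes in the class. Among genes higher in fresh MII oocytes the shares are 63.2% and 30.7%, and among lower genes 13.3% and 11.1%.

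Promoter motifs occurred in genes of both directions. RefSeq promoters (250 bases before to 50 after the start, build GRCm38.p6) were on hand for 38 of the 45 genes, which had 47 starts. An E2F motif, TTTGGCG or TTTCGCG on either strand, occurred in 15 of the 47 (31.9%) and in 3.96% of 13476 promoters of all genes. It occurred in 7 of 19 promoters of genes higher in fresh MII oocytes and in 4 of 16 promoters of lower genes. CCAAT, on either strand, occurred in 55.3% of the 47 and 38.1% of all promoters. Orc1, which rose, and Mcm5, which fell, both hold these motifs in the 160 bases before the start, shown with the motifs of either strand in capitals. Adjacent or overlapping motifs run together in the capitals.
Orc1, chr4:108579294-108579453 (plus strand): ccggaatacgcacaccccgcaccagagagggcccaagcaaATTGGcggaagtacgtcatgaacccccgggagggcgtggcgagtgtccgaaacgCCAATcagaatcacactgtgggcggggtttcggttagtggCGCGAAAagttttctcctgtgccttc
Mcm5, chr8:75109349-75109508 (plus strand): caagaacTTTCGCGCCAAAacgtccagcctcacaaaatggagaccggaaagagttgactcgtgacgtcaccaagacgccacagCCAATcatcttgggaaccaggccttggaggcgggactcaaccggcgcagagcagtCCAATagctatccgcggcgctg

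Other genes of replication were divided as well. Of 61 tested in fresh follicles, 25 were higher (41.0%, beside 22.8% of all genes) and 15 lower (24.6%, beside 29.8%) in MII oocytes. Firing and fork factors held 9 higher and 1 lower of 13, with Dbf4, the activator of the Cdc7 kinase, at 2.30 ± 0.23 (SE) and Mtbp, which helps to recruit Cdc45, at 2.56 ± 0.27 (SE) on the log2 scale. The subunits of the alternative clamp loader that serves sister chromatid cohesion fell, with Chtf18 at −3.83 ± 1.04 (SE) and Dscc1 at −3.77 ± 0.72 (SE). All 3 RNase H2 subunits, which remove ribonucleotides from DNA, fell by 2.12 to 3.82 on the log2 scale. Nucleotide supply gave 4 higher and 3 lower of 10, from Rrm2, the small subunit of ribonucleotide reductase, at 3.63 ± 0.31 (SE) to Tyms, which makes thymidylate, at −5.46 ± 0.26 (SE). Of the chromatin assembly genes, Chaf1a and Chaf1b fell (−2.20 ± 0.36 and −5.16 ± 0.66, SE) and Asf1b rose (2.27 ± 0.25, SE). Of the cyclins of S phase entry and S phase, Ccne1 rose by 3.04 ± 0.66 (SE) and Ccna2 by 2.51 ± 0.23 (SE), and Ccne2 was not called, at 0.83 ± 0.39 (SE, adjusted p = 0.072).

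Vitrification changed no replication gene at the adjusted threshold. In GV oocytes 0 of 45 genes were called, as were 0% of all 10831 genes tested, and 1 had an unadjusted p under 0.05 (2.22%, beside 1.66% of all genes). The log2 fold changes had a median of 0.13, and the 95% interval lay within ±1 for 20 of the 45 (44.4%, beside 18.9% of all genes). In MII oocytes 0 of the 42 genes tested were called, as were 0% of all 8428 genes, and 6 had an unadjusted p under 0.05 (14.3%, beside 12.5% of all genes). Their median was 0.012, and the 95% interval lay within ±1 for 35 of 42 (83.3%, beside 63.8% of all genes). Rfc2, Pold1 and Pold4 were too low in MII oocytes to be tested. With DESeq2, Pole3 was called in MII oocytes, and the share of all genes called by DESeq2 is not given here.

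**Figure D4:**
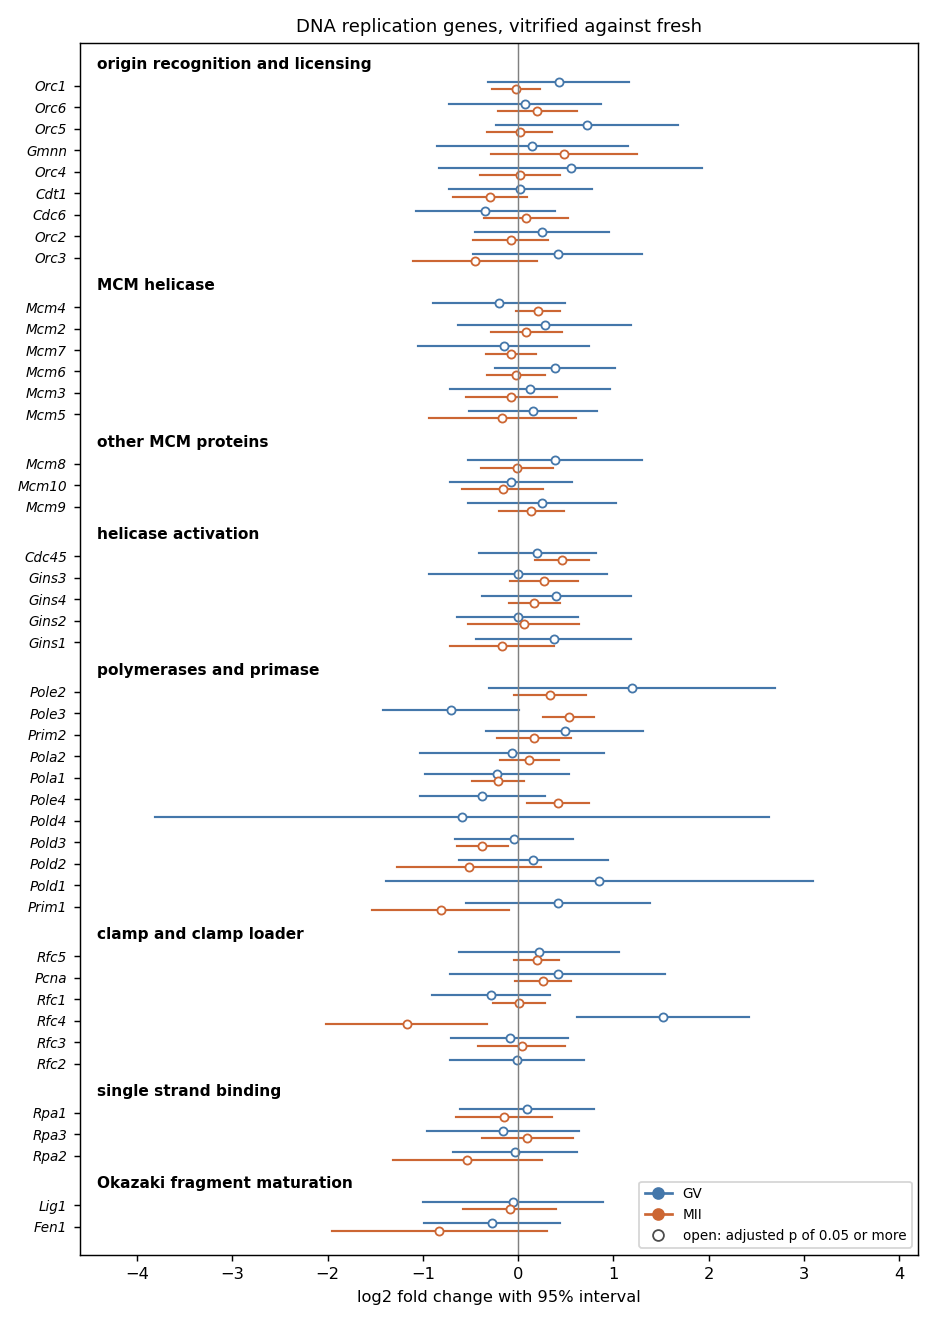
Log2 fold change of vitrified against fresh follicles (horizontal axis) for the replication genes by role, in GV and in MII oocytes, with 95% intervals; values right of 0 are higher after vitrification. The MII intervals are narrower than the GV intervals and most of both cross 0.

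Rfc4, a small subunit of the clamp loader, was the one gene of the 45 whose fresh and vitrified GV oocytes did not overlap (2.22%, beside 2.05% of all genes). It measured 18.9, 17.5, 23.8 and 10.6 CPM in fresh and 80.1, 48.0, 28.8 and 43.1 CPM in vitrified GV oocytes. The log2 fold change was 1.52 ± 0.42 (SE, unadjusted p = 0.0030, adjusted p = 1.0). In MII oocytes it lay the other way, at 1.83 to 20.3 CPM (median 6.95) in fresh and 1.11 to 6.86 CPM (median 3.26) in vitrified follicles, with a change of −1.17 ± 0.41 on the log2 scale (SE, unadjusted p = 0.0083, adjusted p = 0.26). The highest fresh MII value belonged to replicate 11, the oocyte with the high cumulus signal. Without the 4 MII oocytes that earlier results had marked for cumulus signal (fresh 1 and 11, vitrified 1 and 12, of which fresh 11 and vitrified 12 stood out here) the MII change was −0.81 (adjusted p = 0.49). The exons of Rfc4 overlap those of Eif4a2 on the opposite strand, and the counting is not stated to use strand, so reads of the 2 genes cannot be told apart there.

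Pole3 and Pole4, which pair in polymerase epsilon, both lay higher in vitrified MII oocytes, and Pole3 lay lower in vitrified GV oocytes. Pole3 ranged over 285 to 612 CPM (median 488) in fresh and 486 to 900 CPM (median 717) in vitrified MII oocytes, a log2 difference of 0.53 ± 0.13 (SE, unadjusted p = 4.0e-04, adjusted p = 0.19). In vitrified GV oocytes it measured 46.3, 73.6, 54.1 and 68.5 CPM, beside 86.4, 60.1, 135 and 118 CPM in fresh ones, a log2 difference of −0.71 ± 0.33 (SE, unadjusted p = 0.051). Pole4 ranged over 723 to 1655 CPM (median 1026) in fresh and 829 to 2280 CPM (median 1475) in vitrified MII oocytes, a log2 difference of 0.41 ± 0.16 (SE, unadjusted p = 0.014, adjusted p = 0.30). In fresh GV oocytes Pole4 measured 539, 531, 1074 and 541 CPM, beside 518, 560, 443 and 523 CPM in vitrified ones. Fresh replicate 3 stood apart, and the other fresh GV values lay within the vitrified range. The groups overlap for both genes. Within MII libraries numbered under 20 the Pole3 difference was 0.69 and the Pole4 difference 0.60, and within those numbered 20 and over they were 0.29 and 0.07.

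The other 3 genes with an unadjusted p under 0.05 in MII oocytes were Cdc45, Pold3 and Prim1. Cdc45 ranged over 187 to 417 CPM in fresh and 265 to 590 CPM in vitrified MII oocytes, a log2 difference of 0.46 ± 0.14 (SE, unadjusted p = 0.0022, adjusted p = 0.20). Pold3, a small subunit of polymerase delta, ranged over 150 to 275 CPM in fresh and 90.0 to 217 CPM in vitrified MII oocytes, a log2 difference of −0.38 ± 0.13 (SE, unadjusted p = 0.0077, adjusted p = 0.26). Prim1 ranged over 1.93 to 12.5 CPM in fresh and 0.891 to 8.27 CPM in vitrified MII oocytes, a log2 difference of −0.81 ± 0.35 (SE, unadjusted p = 0.028, adjusted p = 0.35). Within libraries numbered under 20 the differences were 0.62 for Cdc45, −0.55 for Pold3 and −0.34 for Prim1. Within those numbered 20 and over they were 0.20, −0.16 and −1.48, the same directions in both series.

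**Figure D5:**
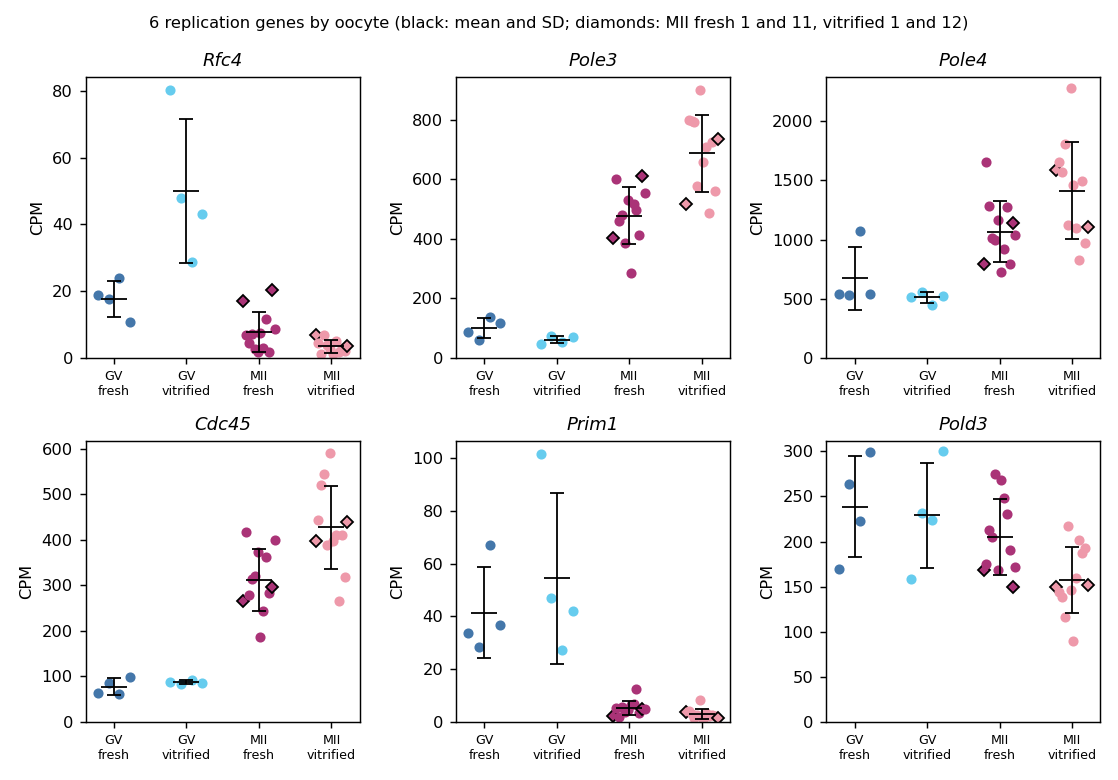
CPM in every oocyte for Rfc4, Pole3, Pole4, Cdc45, Prim1 and Pold3 in the 4 groups, with 1 point per oocyte, the mean and SD in black, and diamonds for MII fresh replicates 1 and 11 and MII vitrified replicates 1 and 12. Rfc4 is the gene whose fresh (10.6 to 23.8 CPM) and vitrified (28.8 to 80.1 CPM) GV oocytes do not overlap.

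Whether the stage change differed between fresh and vitrified follicles was tested as an interaction. Of the 45 genes 0 were called, as were 0% of all 11470 genes, and 3 had an unadjusted p under 0.05 (6.67%, beside 4.07% of all genes). Pole3 rose more in vitrified follicles, by a log2 difference of 1.25 ± 0.28 (SE, unadjusted p = 9.1e-05, adjusted p = 0.21), and Pole4 had 0.80 ± 0.32 (SE, unadjusted p = 0.017, adjusted p = 1.0). With 1 oocyte left out the Pole4 difference ran from 0.46 to 0.90. For Rfc4 the difference was −2.64 ± 0.74 (SE, unadjusted p = 0.0011, adjusted p = 0.65). The Pole3 interaction was called by DESeq2 (1.31, adjusted p = 0.033) and by edgeR without GV fresh replicate 2 (1.43, adjusted p = 0.035). It uses the same oocytes as the comparisons within each stage.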

How the data were processed

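Single-oocyte libraries had been made with a SMART-Seq v4 ultra low input kit, per the labels' protocols, and the reads handled with HISAT2, featureCounts and build mm10, per the submitters' processing notes. The authors deposited 1 table of counts per gene. Its GV values were whole counts, and its MII values behaved as estimated counts that need not be whole, which the authors deposited with no account of the step in the sources used here; the MII values were rounded before testing. Of 13202 rows, 27 exact repeats were dropped. No gene summed to under 10 across the MII oocytes. Tests used edgeR 4.0.16 (R 4.3.3): TMM scaling, genes kept by filterByExpr (minimum count 10, minimum total 15), the quasi-likelihood test, two-sided, with Benjamini-Hochberg adjustment over all genes tested and a threshold of 0.05. Vitrification was tested within each stage, and the stage contrasts and their difference in 1 fit of all 32 oocytes. CPM used the TMM factors of that fit. DESeq2 1.42.0, limma-voom (limma 3.58.1), other filters and scalings, library series and leaving out oocytes were alternatives. Exons of 17 of the 45 genes overlap another gene's. The scripts were tested on simulated data. The genes, lists and tests were chosen with earlier results of these data known. Genes named singly were the 8 largest rises and falls among the calls of each stage contrast, those with unadjusted p under 0.05 for vitrification or the interaction, and 15 set names; others were named with their complex after their values were seen.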

Additional observations from a re-analysis of the deposited data

Results flagged for a closer look

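Each of the 45 genes was examined in the 2 GV groups for an oocyte far from the other 3, by the gap to its nearest neighbour as a share of the whole range, against Dixon's 95% critical value. Of the 90 groups of 4 oocytes examined 4 passed, where chance gives about 1 in 20. Lig1 measured 54.7 CPM in GV fresh replicate 4, beside 22.5 to 25.9 CPM in the other 3. Pole4 measured 1074 CPM in GV fresh replicate 3, beside 530.6 to 540.9 CPM. Gins4 measured 347.1 CPM in GV vitrified replicate 1, beside 142.6 to 174.8 CPM. Pole2 measured 68.4 CPM in GV vitrified replicate 1, beside 6.89 to 13.5 CPM in the other 3.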

How the results depend on the processing

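Single genes were followed only where chosen by size of change, unadjusted p or set name, so their stability says little about the rest. Under alternatives other than leaving out 1 oocyte, 579 of their 613 values kept their direction and side of the threshold. With 1 oocyte left out 1708 of 1752 did. Over all 45 genes, the scaling over whole-valued genes changed the fresh counts from 19 higher and 15 lower to 25 and 10. In vitrified follicles they changed from 18 and 17 to 24 and 12. Restricting the count to the 17 genes with whole MII values gave 5 higher and 9 lower in fresh follicles (all such genes: 696 and 2384 of 6616) and 5 higher and 10 lower in vitrified follicles (757 and 2685 of 6616). DESeq2 called 1 gene, Pole3, for vitrification in MII oocytes and 1, again Pole3, in the interaction. The shares of all genes that DESeq2 called are not given here. Leaving out 1 oocyte gave 0 to 1 in the interaction. Under the scaling over whole-valued genes Cdc6 turned to 0.14 in fresh and 0.62 in vitrified follicles and Cdt1 to 0.61 in vitrified follicles. DESeq2 turned Cdt1 in fresh follicles to −0.079 and Mcm6 in vitrified follicles to −0.056. With only MII libraries numbered 20 and over, Cdt1 was 0.054 and Gmnn −0.20 in vitrified follicles, whereas Gmnn was called with those under 20 (1.37, adjusted p = 0.0067). Leaving out 1 oocyte moved Cdt1 in fresh follicles between −0.13 and 0.27, with −0.038 without MII fresh replicate 12. The cause of these changes was not tested.

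Oocytes with the same replicate number showed no clear pairing across the arms. The correlation of their deviations ran from −0.47 to 0.28 over 4 GV pairs (2 over 0.1) and from −0.37 to 0.35 over 12 MII pairs (6 over 0.1). Of these, 1 of 4 and 0 of 12 correlated best with their own number. Some library numbers occur in both arms, and a pairing by library number was not examined. With the replicate number as a block, 0 of the 45 genes were called for vitrification in either stage. Of the 45, 17 were higher and 11 lower in fresh MII oocytes, and 18 and 17 in vitrified ones. The shares of all genes called with this block are not given here. Depth limits Rfc2, Pold1 and Pold4, which were at or near 0 in many MII oocytes, and 4 GV oocytes per group leave 95% intervals that reach beyond ±1 for 25 of the 45 genes.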

Other observations

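The highest value of a gene among the 4 fresh GV oocytes lay in replicate 3 for 19 of the 45 genes, in replicate 4 for 18, in replicate 2 for 6 and in replicate 1 for 2. Among vitrified GV oocytes it lay in replicate 1 for 18 genes, in replicate 4 for 14, in replicate 3 for 8 and in replicate 2 for 5. Gins1, Gins4, Gmnn, Orc2 to Orc6, Pcna, Prim1, Prim2, Rfc4 and Rpa3 were highest in fresh replicate 3 and in vitrified replicate 1. The summed level of the 45 genes was 5620 CPM in fresh replicate 3, beside 3882, 3949 and 4257 CPM in the other 3. It was 6388 CPM in vitrified replicate 1, beside 4681, 3745 and 4292 CPM. These 2 oocytes were the highest of their groups for Ccnb1, cyclin B1, at 1475 and 2442 CPM, where the other 6 GV oocytes had 384 to 1208 CPM and fresh MII oocytes 5286 to 11058 CPM. Btg4, also examined as a check of maturation, was highest of its group in fresh replicate 3, at 5679 CPM. It was not so in vitrified replicate 1, at 2968 CPM beside 3595 CPM in vitrified replicate 2. Without GV vitrified replicate 1 the median log2 fold change of the 45 genes between vitrified and fresh GV oocytes was 0.0052, beside 0.13 with it. The TMM factor of GV fresh replicate 3 was 1.04835, beside 1.28109 to 1.40064 in the other fresh GV oocytes. That of GV vitrified replicate 1 was 1.00214, beside 1.30457 to 1.39519 in the other vitrified ones. The oocyte with the highest value was not counted over all genes. Whether the pattern is particular to the replication genes was therefore not tested.

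Per length of transcript the most abundant of the 45 genes was Pole4 in fresh GV oocytes, at 379 CPM per kb, and Orc6 in fresh MII oocytes, at 677 CPM per kb. The 45 genes summed to 4427 ± 812 CPM (SD, n = 4) in fresh GV and 7608 ± 1036 CPM (SD, n = 12) in fresh MII oocytes, and to 4777 ± 1141 CPM (SD, n = 4) and 8594 ± 1649 CPM (SD, n = 12) in vitrified ones.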
